A study of Mus musculus with 12 samples.

Results

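Potassium channel genes were read as the windows of one deposited table whose gene name begins with Kcn and ends in family letters and a number. This rule took 92 of the 25507 gene windows (0.361%), and no member had more than 1 window. The members hold 30 voltage-gated pore subunits (Kcna, Kcnb, Kcnc, Kcnd, Kcnh and Kcnq genes), 10 silent modifier subunits (Kcnf, Kcng, Kcns and Kcnv), 8 calcium- or sodium-activated channels (Kcnma, Kcnn, Kcnt and Kcnu), 15 inward rectifiers (Kcnj), 14 2-pore-domain channels (Kcnk) and 15 auxiliary subunits (Kcnab, Kcne, Kcnip and Kcnmb). The rule used names and no measured value.

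The cells were KPC1199, a cultured line of murine pancreatic ductal adenocarcinoma of strain C57BL/6. Chromatin was profiled by CUT&Tag, in which an antibody directs a transposase to cut beside a histone mark, in 3 cell states. The first state was cells given 10 ng/ml IFN-gamma and PD-L1 high, the second was cells given the same dose with no selection on PD-L1, and the third was untreated cells with no selection on PD-L1. PD-L1 is the checkpoint ligand that IFN-gamma induces on tumour cells. The marks were H3K4me3 (active promoters), H3K27Ac (active promoters and enhancers), H3K27me3 (written by Polycomb complex PRC2) and ubiquitinated H2A, called H2A119Ub in the labels (written by PRC1). Each of the 12 combinations had 1 library, so no value could be checked against a replicate and p-values are absent. All libraries came from 1 line in culture, and nothing in the labels says how many cultures or sorts fed a library.

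Potassium channels let potassium ions leave or enter the cell along their gradient and so set the membrane potential. Voltage-gated and calcium-activated channels end electrical spikes in neurons and muscle, while inward rectifiers and 2-pore-domain channels hold the resting potential, and silent and auxiliary subunits adjust the gating of their partners. Epithelia use a few of them, such as Kcnn4, Kcnk5 and Kcnq1 with Kcne partners, to drive fluid and ion secretion. Many promoters of neuronal and cardiac genes carry Polycomb marks in cells of other lineages, and promoters rich in CpG dinucleotides are the usual sites of both H3K4me3 and Polycomb.

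The 4 promoters shown next stand for 4 chromatin patterns among the members and were chosen after their values were seen. Kcnn3 had the most H3K27me3 of the 39 members with 1 RefSeq promoter whose start lay within 500 bp of the 5′ end of the gene's annotated span, Kcnn4 the most H3K4me3, Kcnk5 had H3K4me3 with almost no H3K27me3, and Kcnh7 had almost no tags in any mark. Each is 300 bases from RefSeq on GRCm38.p6, the assembly known as mm10, running 5′ to 3′ on the gene's strand from 250 bases before to 50 bases after the annotated start, with CpG dinucleotides in capitals.
Kcnn3, chr3:89519914-89520213, plus strand: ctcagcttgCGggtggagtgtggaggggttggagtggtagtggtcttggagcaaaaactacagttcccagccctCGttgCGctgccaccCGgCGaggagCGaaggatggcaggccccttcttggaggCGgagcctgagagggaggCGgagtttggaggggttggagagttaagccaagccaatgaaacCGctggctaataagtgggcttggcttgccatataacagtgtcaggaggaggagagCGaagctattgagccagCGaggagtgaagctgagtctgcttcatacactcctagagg
Kcnn4, chr7:24370013-24370312, plus strand: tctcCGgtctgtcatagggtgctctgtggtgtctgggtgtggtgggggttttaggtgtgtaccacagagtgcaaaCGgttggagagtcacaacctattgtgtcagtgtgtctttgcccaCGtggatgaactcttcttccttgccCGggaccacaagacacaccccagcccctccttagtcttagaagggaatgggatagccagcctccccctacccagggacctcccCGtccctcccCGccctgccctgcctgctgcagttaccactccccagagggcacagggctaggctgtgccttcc
Kcnk5, chr14:20181733-20182032, minus strand: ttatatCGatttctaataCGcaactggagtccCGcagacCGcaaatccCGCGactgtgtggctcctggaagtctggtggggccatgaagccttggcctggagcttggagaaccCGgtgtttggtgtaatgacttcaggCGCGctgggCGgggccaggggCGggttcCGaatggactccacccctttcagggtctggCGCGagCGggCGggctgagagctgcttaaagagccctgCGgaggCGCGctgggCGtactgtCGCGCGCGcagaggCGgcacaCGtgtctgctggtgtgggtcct
Kcnh7, chr2:63184238-63184537, minus strand: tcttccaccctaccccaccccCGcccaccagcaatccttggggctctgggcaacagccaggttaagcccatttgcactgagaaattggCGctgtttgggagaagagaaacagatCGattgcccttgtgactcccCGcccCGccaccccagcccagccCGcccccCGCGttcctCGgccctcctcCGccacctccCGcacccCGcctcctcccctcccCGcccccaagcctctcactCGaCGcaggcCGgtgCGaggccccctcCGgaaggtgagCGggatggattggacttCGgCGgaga
The Kcnn3 promoter held 11 CpG dinucleotides, Kcnn4 held 6, Kcnk5 held 26 and Kcnh7 held 21, where the median of 18651 promoters was 13 and the quartiles were 4 and 24. Since the 4 were picked for their marks, nothing is read from these counts about CpG content and marks. Searched on both strands, TTCAGCACC, the left part of the element bound by the neuronal repressor REST, was in 0 of the 4 and in 0.381% of all promoters. GGACAGC, the right part, was in 0 of the 4 and in 7.05% of all promoters. Because 67 of the 92 members (72.8%) had a promoter in the table, fewer than 80%, a check of CpG content or motifs over all members is void and none is given.

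Levels are given as normalised tags per window of 6000 bp, a reading of the deposited values inferred from their steps, with the width itself assumed. One tag was worth 0.989 to 1.03 normalised tags in 11 libraries but 1.32 in H2A119Ub of unselected IFN-gamma cells, which would be 9.72 to 10.1 M tags (M, mega) and 7.59 M tags if libraries were scaled to 10 M. Levels carry exact Poisson intervals and ratios Clopper-Pearson intervals at 95%. Both describe counting error alone, between 1 library and another, and say nothing of the spread between cultures. All 8 ductal markers lay above the H3K4me3 filter defined below. Their summed level was 7084 tags in PD-L1 high, 7014 in unselected IFN-gamma and 5746 in untreated cells. Krt8, Krt18, Krt19 and Sox9 each had at least 1172 tags in every state, but Epcam (58.4, 59.6 and 75.7) was near the filter. Epcam, Krt7 and Cldn7 also had 433, 296 and 412 H3K27me3 tags in PD-L1 high cells. There, Krt7, Cdh1, Cldn7 and Epcam had less H3K4me3 than leukocyte Cd68 (369 tags) and neuronal Tubb3 (308). Of the markers of other cells, 1 of 6 acinar and islet, 1 of 5 leukocyte, 2 of 5 fibroblast and endothelial and 2 of 4 neuronal genes passed the filter. Their summed levels ranged over 131 to 198 tags, 374 to 458 tags, 299 to 390 tags and 319 to 448 tags over the 3 states, Ins1, Gcg, Ptprc and Dcn were at 0 in at least 1 library, and their part in the members' values was not tested.

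The members were mostly rich in H3K27me3 and poor in active marks. The median member had 71.7 tags of H3K27me3 in PD-L1 high, 69.1 in unselected IFN-gamma and 70.1 in untreated cells, where the median of all windows was 9.05, 15.2 and 14.2 tags in the same order. In H2A119Ub the median member had 79.7, 66.6 and 64.3 tags, against 39.9, 43.5 and 38.1 tags over all windows. In the active marks the order turned round. The median member had 6.93, 7.95 and 12.9 tags of H3K4me3, against 51.5, 52.6 and 66.7 tags over all windows, and 13.2, 14.2 and 18.8 tags of H3K27Ac, against 42.5, 46.1 and 47.7 tags. The 92 members held 1.49% of all H3K27me3 window tags in PD-L1 high, 1.38% in unselected IFN-gamma and 1.33% in untreated cells, and 0.0696%, 0.0728% and 0.0907% of those of H3K4me3, beside their share of 0.361% of the windows.

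A window was called high in a mark when it lay in the upper quartile of all windows of that library. By this rule 55 members were high in H3K27me3 in PD-L1 high, 54 in unselected IFN-gamma and 58 in untreated cells, which is 59.8%, 58.7% and 63.04% of the members beside 25% of all windows. In H2A119Ub, 48, 38 and 43 members were high in the same order (52.2%, 41.3% and 46.7%). In H3K4me3, 4 members were high in each state. In untreated cells 57 members (62.0%) were high in H3K27me3 alone, against 22.1% of all windows, 31 (33.7%, against 52.8%) were high in neither mark, and 3 (3.26%, against 22.2%) in H3K4me3 alone. Kcnn1, a small-conductance calcium-activated channel, was the 1 member high in both (1.09%, against 2.89% of all windows). The related sodium and calcium channel pore genes (10 Scn and 10 Cacna genes) were alike in kind, with 12 of 20 high in H3K27me3 alone, 8 in neither and 0 in H3K4me3. No test of the difference between these sets was made.

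The subfamilies differed in how many members were high in H3K27me3 alone in untreated cells. This was 22 of 30 voltage-gated subunits, 7 of 10 silent modifiers, 10 of 14 2-pore-domain channels, 9 of 15 inward rectifiers, 6 of 15 auxiliary subunits and 3 of 8 calcium- or sodium-activated channels. The auxiliary subunits had the lowest median H3K27me3, at 16.1 tags in PD-L1 high, 26.3 in unselected IFN-gamma and 29.97 in untreated cells, against 172, 183 and 148 tags for the 2-pore-domain channels. Within each subfamily the spread was wider than between them. Untreated inward rectifiers, for example, ran from 2.03 tags at the lowest to 2192 tags at Kcnj4. Since members are not replicates, these counts are a description.

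**Figure D1:**
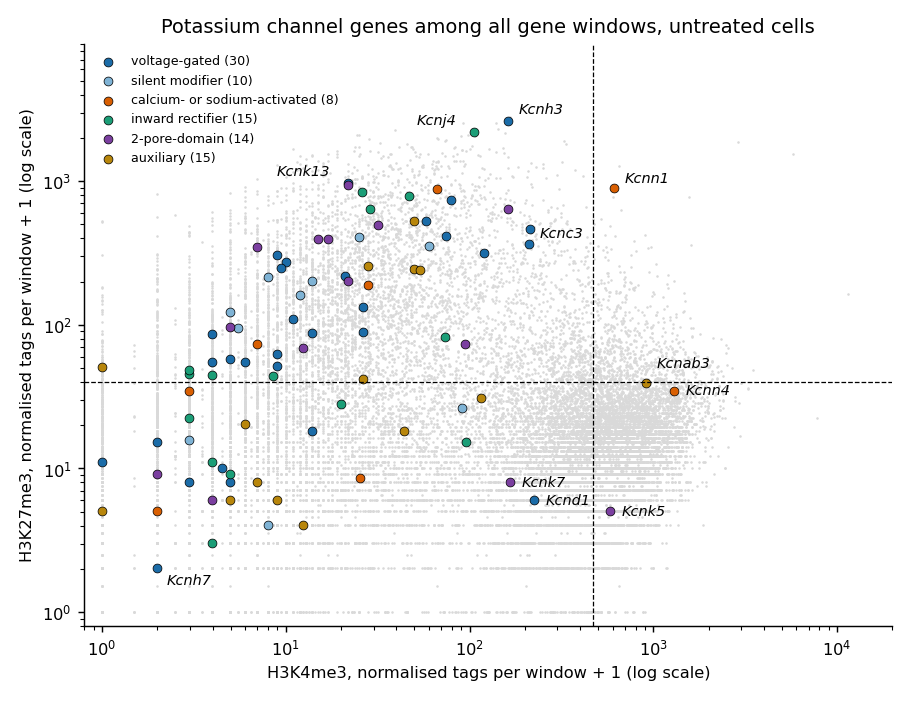
Each point is a gene window of untreated cells, with H3K4me3 on the x axis and H3K27me3 on the y axis, both in normalised tags on log axes, all windows in grey and the 92 potassium channel members coloured by subfamily, with dashed lines at the upper quartile of all windows. Most members sit above the H3K27me3 line and left of the H3K4me3 line (57 of 92), and only Kcnn1 sits beyond both.

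Kcnh3, a voltage-gated channel of forebrain neurons, had the most H3K27me3 of all members. Its window had 4166 tags in PD-L1 high (interval 4040 to 4295), 3277 in unselected IFN-gamma (3165 to 3392) and 2621 in untreated cells (2521 to 2724), and it ranked 1st, 2nd and 2nd among all 25507 windows. Kcnj4, an inward rectifier of brain and heart, came next at 3446, 2860 and 2192 tags, ranks 9, 7 and 7. Both windows were also high in H2A119Ub: Kcnh3 had 363 tags in PD-L1 high, 461 in unselected IFN-gamma and 356 in untreated cells, and Kcnj4 had 344, 321 and 266. Both marks thus had their lowest value in untreated cells at both genes. At Kcnh3, however, H2A119Ub was highest in unselected IFN-gamma cells. Its interval in untreated cells (319 to 395) overlapped that in PD-L1 high cells (326 to 403).

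Kcnk13, a 2-pore-domain channel, had 1485 H3K27me3 tags in PD-L1 high, 1354 in unselected IFN-gamma and 933 in untreated cells. Kcnn1 had 1554, 1294 and 889 tags and Kcnn3, its small-conductance relative, 1289, 1208 and 885. Kcnc4, a fast voltage-gated channel of the Shaw type, had 1355, 1161 and 968. Every one of these 4 windows was highest in PD-L1 high cells and lowest in untreated cells. Kcnj10, the main inward rectifier of glia, had 1375, 1012 and 834 tags, and Kcnj12, an inward rectifier of muscle, 1181, 1031 and 790. Kcnh2, whose product carries a repolarising current of the heart, had 1135, 1004 and 738. In the highest decile of kept windows by H3K27me3 level lay 24 members, and 22 of the 24 had this order of levels over the 3 states, as did 89.3% of all 1277 windows of that decile.

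Over the 92 members, the H3K27me3 level went with the H2A119Ub level, with Spearman rho of 0.81 in PD-L1 high, 0.81 in unselected IFN-gamma and 0.76 in untreated cells, against 0.70, 0.73 and 0.69 over all windows. H2A119Ub also went with H3K4me3 among members (rho 0.74, 0.74 and 0.77, against 0.49, 0.59 and 0.55 over all windows). These are correlations across genes of 1 cell line, with 1 library per mark and state, and genes are not independent replicates.

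**Figure D2:**
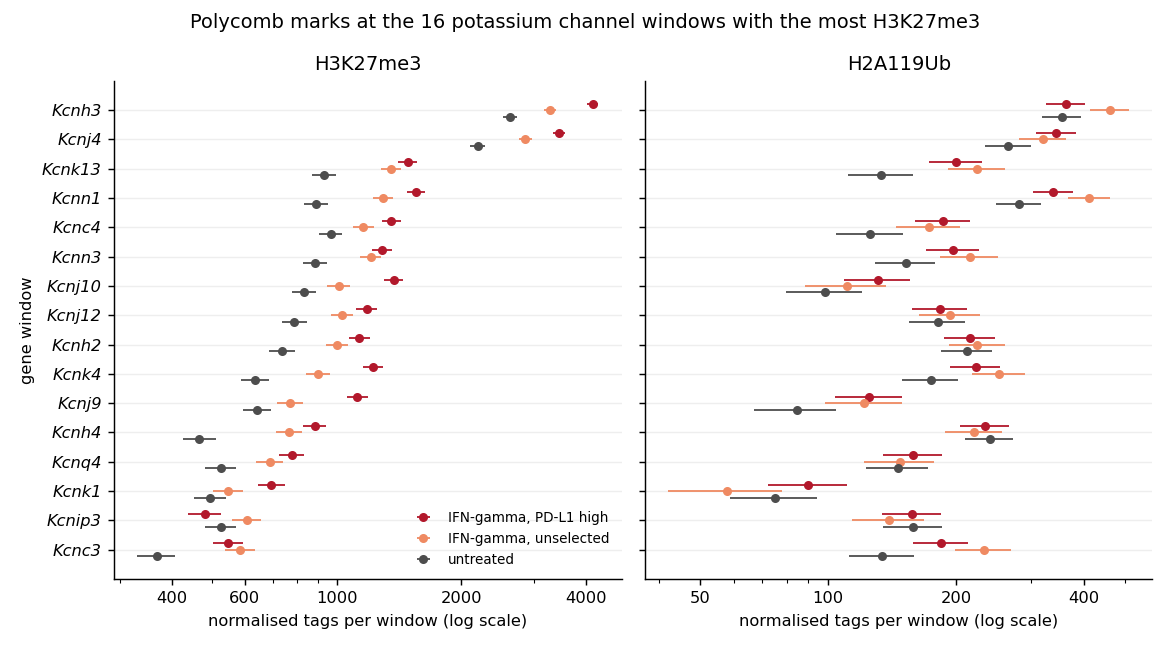
Normalised tags per window of H3K27me3 (left) and H2A119Ub (right) on log axes for the 16 members with the most H3K27me3, with red for PD-L1 high, orange for unselected IFN-gamma and grey for untreated cells, and bars for 95% Poisson counting intervals. In H3K27me3 the PD-L1 high value lies above the untreated value at all but Kcnip3 (479 against 524 tags), while the H2A119Ub values of the 3 states lie closer together (363, 461 and 356 tags at Kcnh3).

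Few members carried active marks. Kcnn4, the intermediate-conductance calcium-activated channel of epithelia and lymphocytes, had the most of both. Its H3K4me3 was 1355 tags in PD-L1 high, 1399 in unselected IFN-gamma and 1302 in untreated cells, and its H3K27Ac was 585, 697 and 530 tags, which ranked 127th, 79th and 105th of all windows. H3K27me3 at Kcnn4 was 18.1, 54.7 and 33.5 tags, above the median window in each state and above the upper quartile in unselected IFN-gamma cells alone. Its H2A119Ub was 125, 202 and 155 tags, above the upper quartile in each state (73.6, 83.0 and 70.0 tags). No other table gene lay within 6000 bp of Kcnn4.

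Kcnk5, an acid-sensitive 2-pore-domain channel of epithelia, had 755 H3K4me3 tags in PD-L1 high, 734 in unselected IFN-gamma and 582 in untreated cells, and its H3K27me3 was 5.03, 3.04 and 4.06 tags. It too had no table gene within 6000 bp. Kcnab3, a cytoplasmic beta subunit of Shaker-type channels, had 1153, 1023 and 909 H3K4me3 tags. Its window cannot be told apart from its neighbours, since the gene lies 465 bp from Trappc1, whose window had 963 tags in untreated cells. Kcnn1 had 626, 635 and 607 H3K4me3 tags, and its neighbours Arrdc2 (3438 bp away) and Ccdc124 (2535 bp away) had 593 and 572 in untreated cells. In H3K27me3, by contrast, Kcnn1 had 889 tags in untreated cells where Arrdc2 had 79.2 and Ccdc124 25.4.

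Across the members, 45 of 92 had another table gene overlapping or within 6000 bp, and of the 18 above the H3K4me3 filter 12 did. Kcnh3 overlaps Mcrs1, which had 882 H3K4me3 tags in untreated cells beside 161 at Kcnh3, and Kcnk7 overlaps Ehbp1l1, which had 2034 beside 166. A window of 6000 bp can hold tags of both genes, and their split was not tested.

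Several channels known from secretory epithelia and the islet had little active mark. Kcnq1, the pore that pairs with Kcne subunits in heart and epithelia, had 1.98, 1.99 and 8.46 H3K4me3 tags and 267, 243 and 246 H3K27me3 tags in PD-L1 high, unselected IFN-gamma and untreated cells. Kcnma1, the large-conductance calcium-activated channel, had 3.96, 1.99 and 1.99 H3K4me3 tags, and Kcnk1, a weakly rectifying 2-pore-domain channel, 29.7, 27.8 and 30.9 beside 695, 546 and 495 of H3K27me3. Kcne3, a partner of Kcnq1 in gut epithelium, had more, with 117, 105 and 115 H3K4me3 tags, though far fewer than the epithelial channels Kcnn4 and Kcnk5 above. Kcnj11, the pore of the ATP-sensitive channel of beta cells, had 14.8, 11.9 and 18.9 H3K4me3 and 16.6, 28.9 and 26.9 H3K27me3 tags. Kcna3, known from T lymphocytes, had 3.96, 6.95 and 8.96 H3K4me3 and 485, 390 and 271 H3K27me3 tags.

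Below the filter of every mark lay 17 members, whose mean levels over the 3 libraries were at most 16.1 tags of H3K4me3, 29.1 of H3K27Ac, 8.08 of H3K27me3 and 39.9 of H2A119Ub. They include Kcnh7 and Kcnh8, which are neuronal relatives of Kcnh2, the small-conductance channel gene Kcnn2 and the inward rectifier gene Kcnj15.

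**Figure D3:**
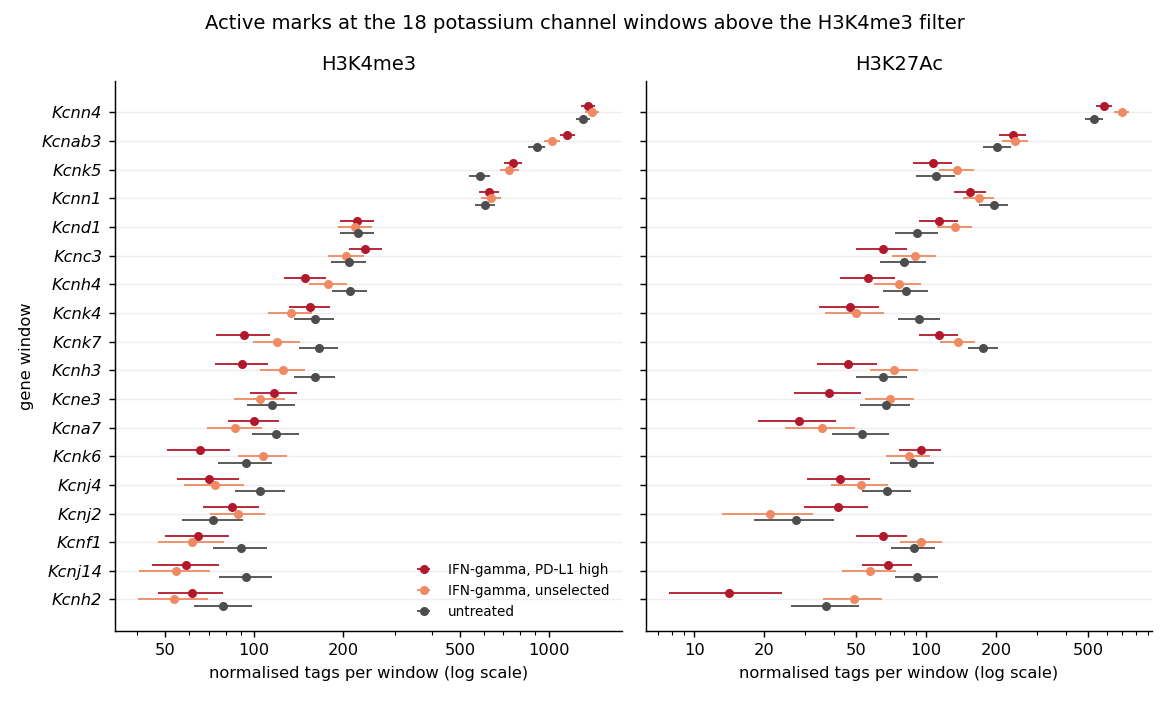
Normalised tags per window of H3K4me3 (left) and H3K27Ac (right) on log axes for the 18 members above the H3K4me3 filter, with red for PD-L1 high, orange for unselected IFN-gamma and grey for untreated cells, and bars for 95% Poisson counting intervals. Kcnn4 and Kcnab3 hold the most H3K4me3 (1302 and 909 tags in untreated cells), and below Kcnk5 and Kcnn1 levels drop to 238 tags or fewer.

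To compare states, the log2 ratio of the level plus a pseudocount was taken relative to the median kept window of the mark, so that a ratio of 0 is that of the median kept window. Windows were kept when their mean over the 3 libraries reached that of the median window (H3K4me3 57.6, H3K27Ac 46.3, H3K27me3 12.8 and H2A119Ub 41.1 tags). This kept 18 members in H3K4me3, 18 in H3K27Ac, 69 in H3K27me3 and 60 in H2A119Ub. Before centring, the median window had shifted by 0.31, 0.20, -0.13 and 0.09 in PD-L1 high over untreated cells in these 4 marks. The ratios of PD-L1 high and of unselected IFN-gamma cells over untreated cells share the untreated library.

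H3K4me3 at the kept members was lower after IFN-gamma relative to other windows. In unselected IFN-gamma against untreated cells the median of the 18 was -0.42 (-0.19 without centring), and 2 of 18 lay above 0. In bulk chromatin, fewer cells with a mark and less mark per cell cannot be told apart. Neither was separated from the difference between libraries in the share of tags in gene windows. None was at least 2-fold higher (0.361% of all kept windows) and 1 was at least 2-fold lower (1.03%). That one was Kcnj14, an inward rectifier, with 58.9 tags in PD-L1 high, 54.1 in unselected IFN-gamma and 94.1 in untreated cells and a ratio of -1.01 (interval -1.53 to -0.53). The counting interval lay below 0 at 11 of 18 members, where 20.2% of all kept windows did. Among the members richest in H3K4me3 the ratios were smaller: -0.13 at Kcnn4, -0.06 at Kcnab3, 0.10 at Kcnk5 and -0.17 at Kcnn1.

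Between PD-L1 high and untreated cells the median H3K4me3 ratio was -0.46 (-0.15 without centring), with 0 members higher by 2-fold or more (0.47% of all kept windows) and 2 lower by as much (2.09%). Kcnk7, a 2-pore-domain family member, had 92.01, 119.2 and 166 H3K4me3 tags in PD-L1 high, unselected IFN-gamma and untreated cells and a ratio of -1.15 (interval -1.55 to -0.79). Kcnh3 had 91.0, 125 and 161 tags and a ratio of -1.12 (interval -1.52 to -0.76), in the same window where its H3K27me3 was highest in PD-L1 high cells. The interval lay below 0 at 13 of 18 members, against 21.3% of all kept windows. Between PD-L1 high and unselected IFN-gamma cells the median was -0.04 (0.0302 without centring), with 0 members past 2-fold either way (0.00784% higher and 0.0784% lower over all kept windows) and 5 intervals below 0 (12.1%). Kcnk6, a relative of Kcnk7, had the lowest ratio there, -0.77 (interval -1.25 to -0.33), from 65.3 tags in PD-L1 high and 107 in unselected IFN-gamma cells.

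The level of a window bears on these ratios. Of the 18 members, 10 lay in the lowest decile of kept windows by H3K4me3 level, where the median of all windows was -0.48 in unselected IFN-gamma over untreated cells and that of the 10 members -0.69. For PD-L1 high over untreated cells the same medians were -0.55 and -0.80. Centred within deciles by level, a setting chosen after the data were seen, the median of the 18 members was -0.20 in unselected IFN-gamma and -0.22 in PD-L1 high cells over untreated cells, and 4 of 18 lay above 0 in each. Neither contrast then held a member past 2-fold. By median, members with and without high H3K27me3 both lay below other windows, in sets that were not matched by H3K4me3 level. The 10 kept members in the upper quartile of H3K27me3 of untreated cells had a median of -0.61 in PD-L1 high over untreated cells, beside -0.13 for the 2204 windows of all genes with as much H3K27me3. The other 8 members had a median of -0.30, beside 0.02 for the 10550 windows with less. Above 0 lay 0 of the 10 members and 2 of the 8.

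H3K27Ac gave a like picture. The median of the 18 kept members was -0.31 (-0.0747 without centring) in unselected IFN-gamma over untreated cells, -0.22 in PD-L1 high over unselected IFN-gamma cells and -0.61 in PD-L1 high over untreated cells. In the first contrast 0 members were higher by 2-fold or more (0.251% of all kept windows) and 1 lower by as much (0.643%), and 8 intervals lay below 0 (14.1%). That member was Kcnk4, a stretch-sensitive 2-pore-domain channel, with 47.1, 49.6 and 93.3 tags and a ratio of -1.09 (interval -1.68 to -0.63). In the second contrast no member passed 2-fold either way (0.0784% higher and 0.196% lower), 5 intervals lay below 0 (10.7%) and 1 above (9.47%), that of Kcnv2, a silent subunit of the retina, at 0.65 (interval 0.05 to 1.33).

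Against untreated cells, PD-L1 high cells had 0 members at least 2-fold higher in H3K27Ac (0.392%) and 2 at least 2-fold lower (1.77%), and 12 of 18 intervals lay below 0 (17.5%). Kcne2, an auxiliary subunit of heart and stomach channels, had 40.5 tags in PD-L1 high, 67.9 in unselected IFN-gamma and 82.2 in untreated cells and a ratio of -1.14 (interval -1.81 to -0.66), and Kcnk4 had -1.12 (interval -1.71 to -0.65). Kcne3 had 37.97, 69.9 and 67.0 tags and a ratio of -0.94 (interval -1.62 to -0.40). Kcnn4 lay near 0 at -0.06: its H3K27Ac was 585 tags in PD-L1 high and 530 in untreated cells, and the median window, shifted by 0.20, had moved slightly more. Centred within deciles by level the 18 members kept a median of -0.53 in PD-L1 high over untreated cells, with 2 of 18 above 0.

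**Figure D4:**
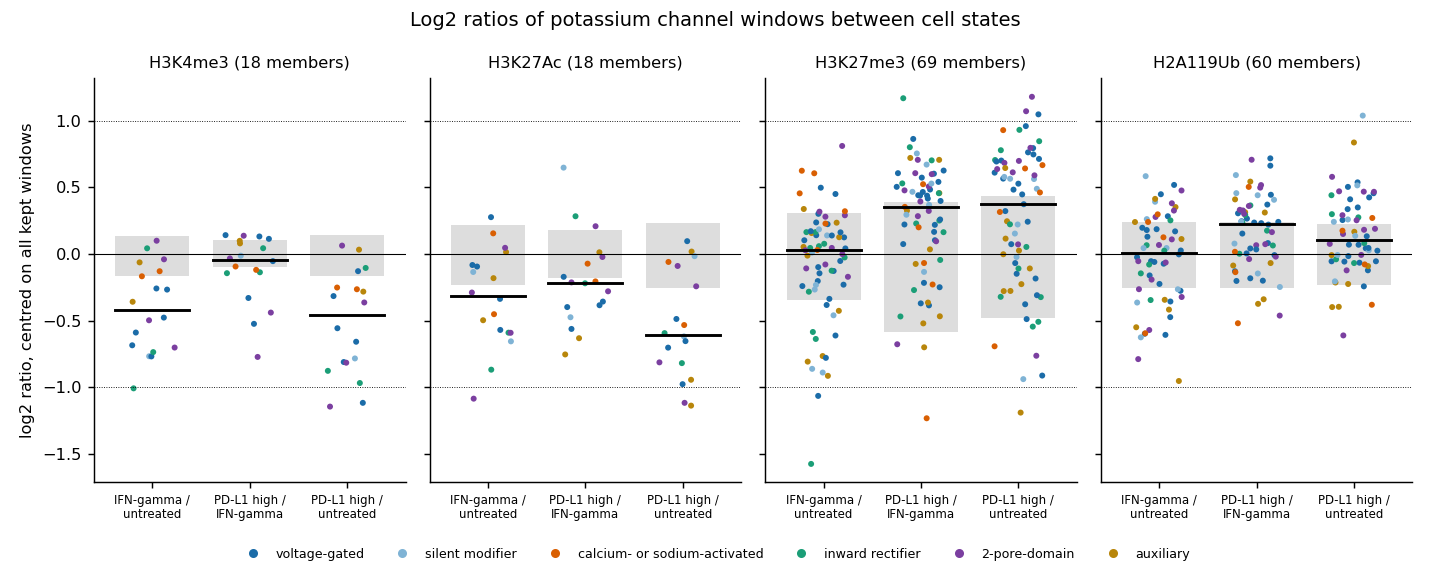
Centred log2 ratios of the kept members by mark and contrast, coloured by subfamily, with a black bar at the members' median, a grey box for the middle 50% of all kept windows, dotted lines at 2-fold, and IFN-gamma on the x axis standing for unselected IFN-gamma cells. The members' medians lie below 0 for H3K4me3 and H3K27Ac (PD-L1 high over untreated: -0.46 and -0.61) but above 0 for H3K27me3 in both contrasts of PD-L1 high cells (0.35 over unselected IFN-gamma and 0.37 over untreated), which were 0.0298 and -0.0034 with quantile normalization.

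Relative to the median kept window, H3K27me3 was higher at most kept members in PD-L1 high cells, a direction that rests on the scaling. Against unselected IFN-gamma cells the median of the 69 was 0.35 and 52 of 69 lay above 0. The interval lay above 0 at 35 members (23.0% of all kept windows) and below 0 at 3 (18.2%). Against untreated cells the median was 0.37, 47 of 69 lay above 0, and intervals lay above 0 at 33 members (23.1%) and below 0 at 4 (12.3%). Without centring, the 2 medians were 0.0933 over unselected IFN-gamma cells and 0.25 over untreated cells, and with quantile normalization 0.0298 and -0.0034. Centred within deciles by level, a setting chosen after the data were seen, they were 0.0069 and -0.0297. In unselected IFN-gamma over untreated cells the median was 0.03, with intervals above 0 at 17 members (15.4%) and below 0 at 10 (12.6%).

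Against untreated cells, 3 members were higher by 2-fold or more in PD-L1 high cells (2.54% of all kept windows) and 1 was lower by as much (8.88%). Centred within deciles by level, 0 members were past 2-fold either way, with ratios from -0.87 to 0.97. The ratios that follow are relative to the median kept window. Kcnk6 had 152, 149 and 72.1 H3K27me3 tags in PD-L1 high, unselected IFN-gamma and untreated cells and a ratio of 1.18 (interval 0.78 to 1.63), so that both IFN-gamma libraries lay above the untreated one. Kcnk4 had 1226, 900 and 636 tags and a ratio of 1.07 (interval 0.93 to 1.22). Kcnh4, a relative of Kcnh3, had 884, 767 and 466 tags and 1.05 (interval 0.89 to 1.22). Kcna3 lay just short of 2-fold at 0.96 (interval 0.75 to 1.19). The 1 lower member was Kcnmb3, a beta subunit of the large-conductance channel, with 15.1, 26.3 and 40.6 tags and -1.19 (interval -2.27 to -0.41).

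Against unselected IFN-gamma cells, in PD-L1 high cells, 1 member was higher by 2-fold or more (1.37%) and 1 lower by as much (12.6%). Kcnj3, a G protein-gated inward rectifier, had 15.1 tags in PD-L1 high and 7.09 in unselected IFN-gamma cells, and the interval of its ratio of 1.17 (-0.03 to 2.89) includes 0. Kcnn4 had 18.1 and 54.7 tags and a ratio of -1.23 (interval -2.19 to -0.54), and its H2A119Ub was lower as well, at -0.52 (interval -0.91 to -0.20). Kcnk2, a stretch-sensitive 2-pore-domain channel, went the same way with 50.3 and 98.3 H3K27me3 tags and -0.68 (interval -1.23 to -0.20). In unselected IFN-gamma over untreated cells 0 members were higher by 2-fold or more (3.79%) and 2 lower by as much (4.51%). Kcnj3 was at -1.58 (interval -3.29 to -0.52), from 7.09 against 21.3 tags. Kcna1, a voltage-gated channel of axons, was at -1.07 (interval -1.84 to -0.41), from 27.4 against 50.8 tags. Both ratios of Kcnj3 use the same 7.09 tags of unselected IFN-gamma cells, so they are not separate results.

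The H3K27me3 ratios of the members followed a trend with level that all windows shared. In PD-L1 high over untreated cells the median of all kept windows ran from -0.47 in the lowest decile by level to 0.74 in the highest. The 24 members in the highest decile had a median of 0.70, with Kcnip3, a calcium-binding auxiliary subunit, at -0.00 as the lowest and Kcnk4 at 1.07 as the highest. In that decile 23 of 24 members and 99.7% of all windows lay above 0. In PD-L1 high over unselected IFN-gamma cells the 24 members had a median of 0.46 beside 0.52 for all windows of the decile, and in unselected IFN-gamma over untreated cells 0.17 beside 0.12.

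**Figure D5:**
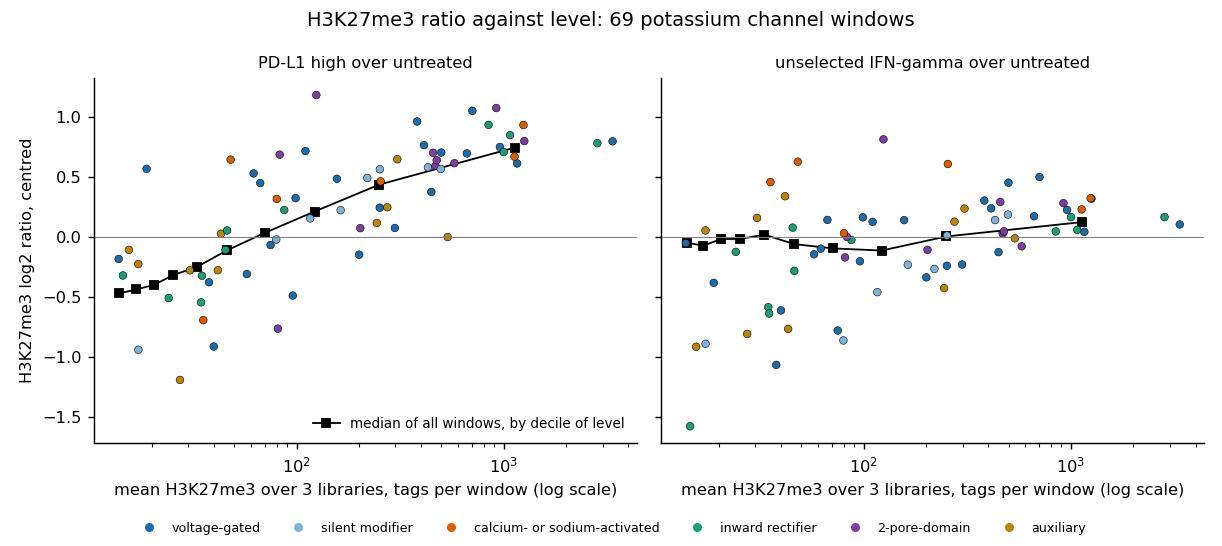
Centred H3K27me3 log2 ratio of the 69 kept members, coloured by subfamily, against their mean level over the 3 libraries in normalised tags on a log axis, in PD-L1 high over untreated cells (left) and unselected IFN-gamma over untreated cells (right), with black squares for the median of all kept windows in each decile by level. On the left the squares climb from -0.47 to 0.74 and the members lie around them, and on the right they stay between -0.11 and 0.12.

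H2A119Ub moved less. In PD-L1 high over unselected IFN-gamma cells the median of the 60 kept members was 0.23 and 44 of 60 lay above 0, with no member past 2-fold (0.361% higher and 0.517% lower over all kept windows), and 11 intervals without 0 (22.5%), of which 9 lay above it. Most single members could therefore not be told from the median window at this depth. This contrast uses the shallowest of the 12 libraries, and the part of its depth in the ratio was not tested. Centred within deciles by level the median was 0.22, which was more than the 0.0069 of H3K27me3 in this contrast. Without centring the H2A119Ub median was 0.0872. In unselected IFN-gamma over untreated cells the median was 0.01, with no member past 2-fold (0.408% higher and 0.894% lower), 6 intervals above 0 (12.1%) and 9 below (10.5%).

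For PD-L1 high over untreated cells the median H2A119Ub ratio was 0.11, with 1 member higher by 2-fold or more (0.227%), 0 lower by as much (0.306%), 13 intervals above 0 (10.6%) and 3 below (9.65%). The higher member was Kcng2, a silent modifier, with 90.5, 71.8 and 37.1 tags in PD-L1 high, unselected IFN-gamma and untreated cells and a ratio of 1.04 (interval 0.64 to 1.81). Its H3K27me3 ratio in the same contrast was 0.56 (interval 0.31 to 0.83). Kcnmb4, a neuronal beta subunit of the large-conductance channel, had 97.1, 79.1 and 47.3 H2A119Ub tags and 0.84 (interval 0.43 to 1.49). Of the 57 members kept in both Polycomb marks, 30 were above 0 in both and 8 below 0 in both in this contrast, while 19 had opposite signs: 12 were above 0 in H3K27me3 and below in H2A119Ub, and 7 the other way. Of the 9818 windows of all genes kept in both marks, 33.4% were above 0 in both, 28.0% below 0 in both, 17.9% above in H3K27me3 alone and 20.6% above in H2A119Ub alone.

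The chromatin class was the same in all 3 states at 83 of 92 members (90.2%), near the 88.7% of all windows, and differed at 9. Kcnn4 and Kcnab3 were high in H3K4me3 alone in PD-L1 high and untreated cells and high in both marks in unselected IFN-gamma cells, where their H3K27me3 was 54.7 and 57.8 tags beside a quartile at 45.6. The counting intervals of these 2 values (41.1 to 71.4 and 43.7 to 74.8) include that quartile. Kcnma1 was high in H3K27me3 in both IFN-gamma states (48.8 tags in PD-L1 high and 61.8 in unselected IFN-gamma cells). It was not high in untreated cells (33.5 tags), where its interval (23.1 to 47.1) includes the quartile at 39.1. Kcnd3, Kcnj5, Kcnj8 and Kcnmb3 were high in H3K27me3 in untreated cells alone, and Kcna1 and Kcnab1 in PD-L1 high and untreated cells. All 9 had fewer than 62 H3K27me3 tags in every state.

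Other genes of potassium transport (28 found in the table: sodium-potassium pumps, cation-chloride cotransporters, Hcn pacemaker channels, sulfonylurea receptors, Rest and Lrrc26 among them) included a larger share of windows above the H3K4me3 filter, which is set at the median window: 15 of the 28, against 18 of the 92 members. The H3K27Ac filter was passed by 11 of the 28, the H3K27me3 filter by 20 and the H2A119Ub filter by 21, and no test of these differences was made. Rest, the repressor of neuronal genes, had 863 H3K4me3 tags in PD-L1 high, 827 in unselected IFN-gamma and 643 in untreated cells. The kept genes among the 28 had median ratios in PD-L1 high over untreated cells of -0.16 in H3K4me3, 0.06 in H3K27Ac, 0.43 in H3K27me3 and -0.06 in H2A119Ub. Of the 20 kept in H3K27me3, 2 were at least 2-fold higher (2.54% of all kept windows) and 1 lower by as much (8.88%). Of the 11 kept in H3K27Ac, 1 was at least 2-fold lower (1.77%). Hcn4, the pacemaker channel of the heart, had 1541, 1179 and 845 H3K27me3 tags in PD-L1 high, unselected IFN-gamma and untreated cells. Lrrc26, a partner of Kcnma1 in secretory epithelia, had 1933, 1542 and 1089.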

How the data were processed

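CUT&Tag libraries of 4 marks in 3 states of KPC1199 cells were analysed from a deposited table that holds, per the table's values, a signal per gene window that the authors had normalised. The submitters' processing notes name the tools MACS2 2.2.7.1, Bowtie2 2.4.2 and HOMER and the build mm10. How the window, duplicates and scale were set is not given in the sources used here. The value of 1 tag was fitted to each library, and on the scale of 6000 bp all values below 100 fell within 10% of a half-tag step. Such a fit would hold at any width, so it cannot decide the width. The width of 6000 bp is an assumption, under which 1 tag is worth close to 1 normalised tag in most libraries. Pseudocounts (10th percentile of values above 0) came to 1.99 (H3K4me3), 5.06 (H3K27Ac), 2.03 (H3K27me3) and 8.18 tags (H2A119Ub). Ratios of level plus pseudocount understate differences at low windows, and their intervals are without it. With no molecular identifiers known, reads can be copies of 1 molecule, and the true error is then larger than the counting error. All 92 members matched a RefSeq symbol. Genes named were, of the members, the 8 highest per mark, the 3 highest and 3 lowest ratios per mark and contrast, and 12 set by name, besides those singled out after their values were seen. The members, lists and rules were chosen with earlier results of these data known. Alternatives were no centring, quantile normalization, no level filter, the 25th percentile as pseudocount, other class cuts and centring within deciles by level. The functions were tested on simulated data. Python 3.11.15, numpy 2.4.6, pandas 2.3.3, SciPy 1.17.1 and matplotlib 3.10.9 were used.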

Additional observations from a re-analysis of the deposited data

How the results depend on the processing

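Ratios are medians of the kept members on the log2 scale, for contrast A (unselected IFN-gamma over untreated), B (PD-L1 high over unselected IFN-gamma) and C (PD-L1 high over untreated). Without centring they were -0.19 (A), 0.0302 (B, reversed) and -0.15 (C) in H3K4me3, -0.0747 (A) and -0.41 (C) in H3K27Ac, 0.25 (A), 0.0933 (B) and 0.25 (C) in H3K27me3, and 0.25 (A), 0.0872 (B) and 0.19 (C) in H2A119Ub. With quantile normalization H3K4me3 gave -0.24 (A) and -0.22 (C), and H3K27me3 -0.0195 (A, reversed), 0.0298 (B) and -0.0034 (C, reversed). With no level filter contrast C gave -0.61 in H3K4me3, -0.44 in H3K27Ac and 0.41 in H3K27me3, whose contrast B gave 0.43, and 0.33 with the pseudocount at the 25th percentile. Centring within deciles by level, added after the data were seen, gave -0.20 (A) and -0.22 (C) in H3K4me3, -0.22 (A) in H3K27Ac, and -0.0051 (A, reversed), 0.0069 (B) and -0.0297 (C, reversed) in H3K27me3. With the cut at the 66.7th percentile, 3 members were high in both H3K4me3 and H3K27me3 and 1 in H3K4me3 alone. The cause of these shifts was not tested. The lower H3K4me3 and H3K27Ac of the members in both contrasts over untreated cells kept its sign under every alternative run. No paired analysis was possible because each mark and state had 1 library, which also leaves no replicate to leave out. Values of 3 tags or fewer, as at Kcnh7 in H3K4me3, were taken as near the floor, a limit that was set and not measured.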
